A study of Mus musculus with 6 samples.

Results

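The genes described here are 8 markers of astrocytes that stand for the identity and the housekeeping work of these cells in the brain: *Gfap*, *Kcnj10*, *Gja1*, *S100b*, *Fabp7*, *Glul*, *Aldoc* and *Sox9*. They were taken by name, as every probe set whose only annotated gene symbol is one of the 8, which gave 52 of the 58919 probe sets tested and 8 of the 5017 genes with a symbol. The RNA came from whole-transcript arrays of mouse brain, each probe set reading about 1 exon, with 3 arrays from APPPS1-FVBxABCC1 mice (titled knockout) and 3 from APPPS1-FVB mice (titled control). All 6 arrays therefore share the APPPS1 transgenes, which drive mutant human amyloid precursor protein and presenilin from a *Thy1* promoter active in neurons, and the FVB strain name. The sources used here do not give age, sex, brain region or whether an array holds 1 animal or a pool. The p-values therefore describe the spread among these 6 arrays, which may be technical.

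Astrocytes are the main supporting glia of the brain. They take up the potassium and glutamate that active neurons release, are coupled to each other by gap junctions, and surround amyloid plaques with processes that become rich in the filament protein encoded by *Gfap*. Homeostatic genes such as *Kcnj10*, *Gja1* and *Glul* serve the uptake and coupling functions, and in plaque-bearing brain they need not follow *Gfap*. The question put to the 6 arrays was whether the 8 genes differ when *Abcc1*, which encodes an efflux transporter, is targeted on the amyloid background, and whether they move together. *Abcc1* itself was not analysed here, so the labels could not be checked on the targeted gene. In whole tissue, fewer astrocytes and less RNA per astrocyte cannot be told apart.

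Values below are log2 signals as deposited, and a gene value is the mean over all of its probe sets. The table holds 65535 rows, and 4918 of its 5017 named genes lie on chromosomes 1, 10, 11, 12 and 13, and genes outside it were not analysed here. Array medians over the tested probe sets lay between 7.04 and 7.09, and pairs of arrays correlated between 0.984 and 0.99. Neuronal genes were bright on every array, with *Syt1*, a sensor for vesicle release, at 11.69, 11.66 and 11.63 in knockout 1 to 3 and at 11.64, 11.62 and 11.56 in control 1 to 3. A pair of arrays stood apart in *Gabra6*, a GABA-A receptor subunit of cerebellar granule cells. Knockout 2 had 5.74 and control 3 had 6.70, while knockout 1 and knockout 3 had 3.53 and 3.69 and control 1 and control 2 had 3.87 and 3.82. The mean signal of *Gabra6* was dim, at 4.56. Knockout 2 and control 3 did not stand apart in *En1*, *Prox1* or *Drd1*, other regional markers. In knockout 1 to 3 against control 1 to 3, *En1* had 5.32, 5.46 and 5.44 against 5.47, 5.58 and 5.46. *Prox1* had 7.71, 7.72 and 7.53 against 7.45, 7.64 and 7.54, and *Drd1* 8.41, 8.38 and 8.40 against 8.39, 8.55 and 8.42. The 1 array of each group with high *Gabra6* is left out in the values given as without knockout 2 and control 3. This alternative was chosen after seeing the data.

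None of the 8 genes passed the test, and their values fell into distinct patterns. *Kcnj10*, *S100b* and *Gja1* were lower on every knockout array than on any control array, by log2 differences of -0.26, -0.21 and -0.15. *Gfap* had the largest difference, -0.48, but also the widest spread, and its groups overlapped. *Fabp7*, *Aldoc*, *Glul* and *Sox9* differed by -0.05, -0.02, 0.02 and 0.04. In limma, fitted across all 5017 genes with Benjamini-Hochberg adjustment, 0 of the 8 had an adjusted p below 0.05 (percent of all genes called, 0%), and the smallest adjusted p over all genes was 0.215. At an unadjusted p below 0.05, 3 of the 8 were lower and 0 higher, where 6.12% of all genes were lower and 7.95% higher at that p. Knockout values lay below all control values in the same 3 genes, against 8.85% of all genes. The median log2 difference of the 8 was -0.10, with 6 lower and 2 higher, while that of all genes was 0.00, with 51.4% lower.

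**Figure D1:**
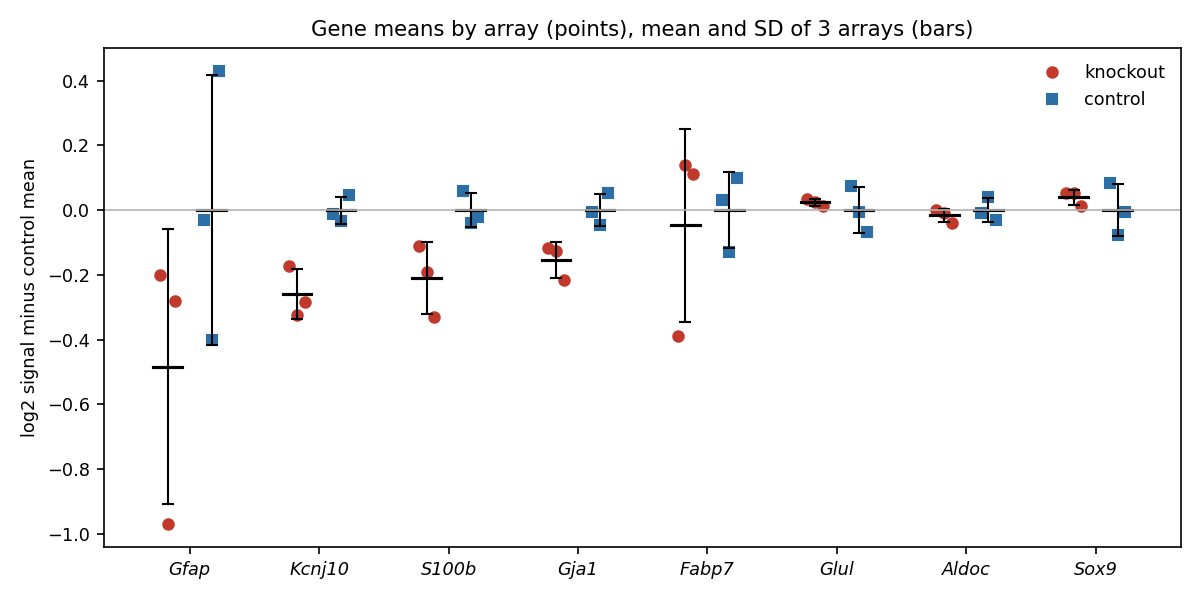
Log2 signal of each of the 8 genes (mean over its probe sets) minus the mean of the 3 control arrays, on the vertical axis, with the 3 knockout arrays (red circles) left of the 3 control arrays (blue squares) and black bars for mean and SD. *Kcnj10*, *S100b* and *Gja1* have knockout points below every control point, while *Gfap* is scattered over a range of 1.40 and *Aldoc* over 0.08.

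*Gfap* encodes the intermediate filament protein that marks reactive astrocytes, and it was the most variable of the 8 genes between arrays of 1 group. It had 9.79, 9.02 and 9.71 in knockout 1 to 3, against 9.96, 9.59 and 10.42 in control 1 to 3. Knockout 2 was the lowest of the 6 arrays and control 3 the highest, and knockout 1 and knockout 3 lay inside the range of the controls. The means were 9.50 ± 0.42 in knockouts and 9.99 ± 0.42 in controls (SD, n = 3 each), which is -0.48 on the log2 scale (SE 0.25, limma adjusted p = 0.427). Its residual SD of 0.42 stood at the 99.7th percentile of all genes. Leaving out 1 array gave -0.24 (knockout 2), -0.27 (control 3) and -0.68 (control 2), and leaving out both arrays with high *Gabra6* gave -0.03. These are the same arrays that stood apart in *Gabra6*, high on both, whereas *Gfap* was low on one and high on the other. Leaving out the lowest knockout and the highest control had to make the *Gfap* difference less negative, whatever *Gabra6* was. Whether tissue sampling had a part in the *Gfap* values was not tested.

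The spread of *Gfap* was shared by the whole transcript. All 12 of its probe sets were lower in knockouts, from -0.75 at probe set 10391801 to -0.19 at probe set 10391802, and none of the 12 separated the groups. In all 12, knockout 2 was the lowest knockout array and control 3 the highest control array. Probe set 10391801 had 9.92, 8.67 and 9.86 in knockout 1 to 3, against 10.27, 9.86 and 10.58 in control 1 to 3. The brightest, 10391805, had 11.30, 10.54 and 11.30 in knockout 1 to 3, against 11.31, 11.15 and 11.74 in control 1 to 3, and differed by -0.35 (SE 0.26). Probe set 10391810 had the smallest unadjusted p of the 12, at -0.68 on the log2 scale (SE 0.33, limma adjusted p = 0.674). Pairs of *Gfap* probe sets correlated over the 6 arrays with a median r of 0.96, and still with 0.96 after each group's mean was subtracted. Over the 4208 genes with at least 3 probe sets the median was 0.14.

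**Figure D2:**
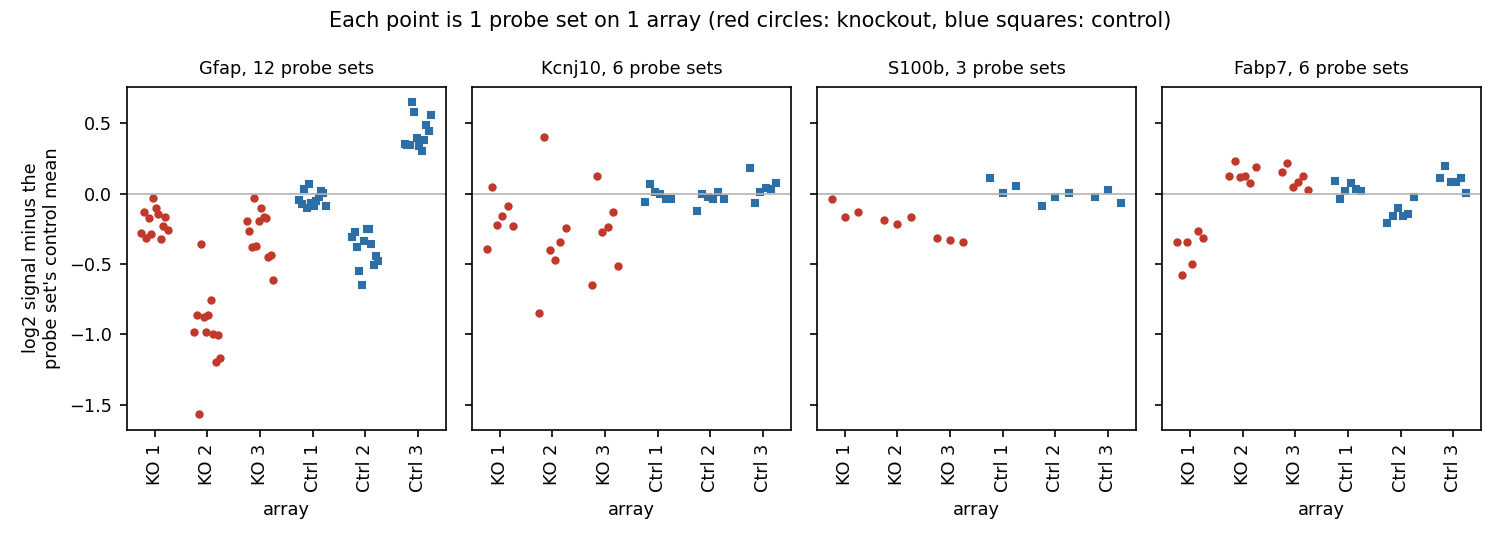
Log2 signal of each probe set minus its own mean over the 3 control arrays, on the vertical axis, by array, for *Gfap*, *Kcnj10*, *S100b* and *Fabp7*. Each point is 1 probe set on 1 array, with knockout arrays as red circles and control arrays as blue squares. The *Gfap* points are lowest on knockout 2 in 11 of 12 probe sets and highest on control 3, all 6 *Fabp7* points sit lowest on knockout 1, and 5 of 6 *Kcnj10* probe sets lie below the controls on every knockout array.

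*Kcnj10* encodes Kir4.1, the inward rectifier potassium channel through which astrocytes clear extracellular potassium. It had 9.62, 9.47 and 9.51 in knockout 1 to 3, against 9.78, 9.76 and 9.84 in control 1 to 3. Every knockout array was below every control array, with the closest pair 9.62 and 9.76. The means of 9.53 ± 0.07 in knockouts and 9.79 ± 0.04 in controls (SD, n = 3 each) differed by -0.26 with an SE of 0.06, or 0.837-fold. The unadjusted limma p was 0.0018 and the adjusted p 0.215. Without knockout 2 and control 3 the difference was -0.20, with an unadjusted limma p of 0.02, while that p was 0.0473 for *S100b* at -0.23 and 0.0782 for *Gja1* at -0.14.

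Within *Kcnj10*, 5 of 6 probe sets had all knockouts below the controls, against 5.52% of all probe sets, and 1 ran the other way. Probe set 10351782 had the largest difference and the smallest p, with 8.83, 8.37 and 8.57 in knockout 1 to 3 against 9.16, 9.10 and 9.40 in control 1 to 3 (log2 difference -0.63, SE 0.15, limma adjusted p = 0.545). The brightest, 10351785, had 11.40, 11.09 and 11.32 in knockout 1 to 3 against 11.56, 11.52 and 11.60 in control 1 to 3, a difference of -0.29 (SE 0.10). The exception was 10351783, with 8.97, 9.33 and 9.05 in knockout 1 to 3 against 8.99, 8.92 and 8.86 in control 1 to 3, a difference of 0.19 (SE 0.12). That probe set was highest on knockout 2, where 4 of the 6 probe sets had the lowest value of all 6 arrays. Its correlation with another probe set of the gene reached -0.98, and the median r between the 6 probe sets, 0.78, dropped to 0.12 after each group's mean was subtracted. In *Gfap* the same subtraction left the median at 0.96.

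*Gja1* encodes connexin 43, the main gap junction protein of astrocytes. It had 10.24, 10.23 and 10.14 in knockout 1 to 3, against 10.35, 10.31 and 10.41 in control 1 to 3, so the groups did not overlap. The means of 10.21 ± 0.06 in knockouts and 10.36 ± 0.05 in controls (SD, n = 3 each) differed by -0.15 with an SE of 0.05, or 0.901-fold (limma unadjusted p = 0.0237, adjusted p = 0.29). All 4 probe sets were lower, from -0.21 to -0.11. In 2 of them all knockouts lay below the controls, against 5.52% of all probe sets. The one with the smallest p, 10363177, had 10.49, 10.56 and 10.37 in knockout 1 to 3 against 10.67, 10.66 and 10.71 in control 1 to 3. The brightest, 10363175, differed by -0.16 (SE 0.09).

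*S100b* encodes a calcium-binding protein that astrocytes also secrete. It had 9.04, 8.96 and 8.82 in knockout 1 to 3, against 9.21, 9.11 and 9.13 in control 1 to 3, with no overlap. The means of 8.94 ± 0.11 in knockouts and 9.15 ± 0.05 in controls (SD, n = 3 each) differed by -0.21 with an SE of 0.07, or 0.865-fold (limma unadjusted p = 0.0133, adjusted p = 0.252). All 3 probe sets were lower, with differences of -0.24, -0.21 and -0.18, and knockout 3 was the lowest array in each. Probe set 10364151 had 9.68, 9.63 and 9.52 in knockout 1 to 3 against 9.85, 9.82 and 9.87 in control 1 to 3. The brightest, 10364152, differed by -0.21 (SE 0.09). Without control 1, only *Kcnj10* of the 8 genes kept an unadjusted limma p below 0.05, with 0.00696, while *S100b* had 0.0519 and *Gja1* 0.0526.

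The promoter windows of the 4 genes with the largest differences are shown so that their sequences can be set beside those differences. The RefSeq promoter table on GRCm38.p6 held 7 of the 8 genes, with windows of 300 bases that run from 250 before to 50 after the annotated start. Each is printed 5′ to 3′ on the gene's strand, and capitals mark matches on either strand to a STAT motif (TTCCNGGAA), an AP-1 motif (TGANTCA) or a CCAAT box (CCAAT).
Gfap (chr11:102897151-102897450, minus strand): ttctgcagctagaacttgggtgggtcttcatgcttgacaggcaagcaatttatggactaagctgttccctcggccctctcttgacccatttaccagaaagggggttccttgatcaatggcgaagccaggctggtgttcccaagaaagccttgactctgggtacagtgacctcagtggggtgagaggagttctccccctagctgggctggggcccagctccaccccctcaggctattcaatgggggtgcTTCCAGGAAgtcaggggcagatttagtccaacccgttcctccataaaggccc
Kcnj10 (chr1:172340960-172341259, plus strand): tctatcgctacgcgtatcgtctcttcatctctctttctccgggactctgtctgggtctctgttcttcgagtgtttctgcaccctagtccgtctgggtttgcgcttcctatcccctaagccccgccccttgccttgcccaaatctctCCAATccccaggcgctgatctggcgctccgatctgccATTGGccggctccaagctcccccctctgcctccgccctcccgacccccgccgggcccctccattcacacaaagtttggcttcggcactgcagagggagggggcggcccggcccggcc
Gja1 (chr10:56377050-56377349, plus strand): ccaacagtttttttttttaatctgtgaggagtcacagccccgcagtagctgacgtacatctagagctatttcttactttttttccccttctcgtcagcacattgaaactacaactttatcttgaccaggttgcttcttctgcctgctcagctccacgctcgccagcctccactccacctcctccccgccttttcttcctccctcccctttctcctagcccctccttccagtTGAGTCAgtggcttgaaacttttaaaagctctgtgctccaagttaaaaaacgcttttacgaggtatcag
S100b (chr10:76253586-76253885, plus strand): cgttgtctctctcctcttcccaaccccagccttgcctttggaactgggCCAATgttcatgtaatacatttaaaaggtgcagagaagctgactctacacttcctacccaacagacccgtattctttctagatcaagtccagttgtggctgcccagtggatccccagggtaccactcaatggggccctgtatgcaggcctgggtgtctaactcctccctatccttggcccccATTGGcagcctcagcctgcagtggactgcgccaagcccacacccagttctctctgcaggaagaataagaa
*Gfap* held 1 STAT motif, which 1.15% of all 32851 windows in the table hold, and so did 1 of 2 windows of *Aldoc*, whose signal differed little. *Gja1* held 1 AP-1 motif, found in 7.81% of windows. *Kcnj10* and *S100b* each held 2 CCAAT boxes, which 37.4% of windows hold, as did *Glul* and *Fabp7*. A SOX motif (ACAAT or ACAAAG, in 42.9% of windows) matched once in *Kcnj10* and in none of the other 3 windows shown. An NFI motif (TTGGC, in 46.7% of windows) matched 2 times in *Kcnj10* and 4 times in *S100b*, and can overlap a CCAAT box. No motif searched was shared by the 4 windows, and a match is a description of letters only.

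*Fabp7* encodes a fatty acid binding protein of radial glia and astrocytes. It had 10.36, 10.89 and 10.86 in knockout 1 to 3, against 10.78, 10.62 and 10.85 in control 1 to 3. Knockout 1 was the lowest of all 6 arrays and the other two knockouts the highest, so the groups overlapped. The difference was -0.05 with an SE of 0.14 (limma adjusted p = 0.912), and 0.13 without knockout 1. Its residual SD of 0.23 stood at the 97.9th percentile of all genes. Knockout 1 was the lowest array in all 6 probe sets, whose pairs had a median r of 0.95. Probe set 10363228, with the lowest difference of the 6, had 10.40, 11.02 and 10.98 in knockout 1 to 3 against 10.97, 10.74 and 10.98 in control 1 to 3. Knockout 1 was not an extreme array for *Gfap*.

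*Glul* encodes glutamine synthetase, which turns glutamate into glutamine in astrocytes. It had 10.65, 10.64 and 10.63 in knockout 1 to 3, against 10.69, 10.61 and 10.55 in control 1 to 3, with the knockouts inside the range of the controls. The difference was 0.02 with an SE of 0.05 (limma adjusted p = 0.863). Its 5 probe sets ran from -0.03 to 0.09, and the brightest, 10350755, differed by 0.06. Probe set 10374454 carries the symbol *Glul* but sits, by its ID, in a run of chromosome 11 genes between *Gm12026* and *Spred2*, whereas *Glul* lies on chromosome 1. It had 11.18, 11.18 and 11.14 in knockout 1 to 3 against 11.18, 11.18 and 11.06 in control 1 to 3.

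*Aldoc* encodes the brain isoform of the glycolytic enzyme aldolase. It had 11.27, 11.26 and 11.23 in knockout 1 to 3, against 11.26, 11.31 and 11.24 in control 1 to 3. This was a difference of -0.02 with an SE of 0.05 (limma adjusted p = 0.907), and its residual SD of 0.03 was at percentile 4.33 of all genes. Of its 9 probe sets, 1 had all knockouts above the controls and 1 all below, against 7.94% and 5.52% of all probe sets. The first, 10379154, had 7.08, 7.29 and 7.27 in knockout 1 to 3 against 6.93, 7.04 and 6.92 in control 1 to 3 (log2 difference 0.25, SE 0.09). The second, 10379162, differed by -0.15, and the brightest, 10379159, by 0.00.

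*Sox9* encodes a transcription factor that specifies glia and stays on in the nuclei of adult astrocytes. It had 9.00, 9.00 and 8.96 in knockout 1 to 3, against 9.03, 8.87 and 8.94 in control 1 to 3. The groups overlapped, with a difference of 0.04 and an SE of 0.05 (limma adjusted p = 0.748). Its 7 probe sets ran from -0.05 to 0.22. The highest, 10382333, had 8.42, 8.60 and 8.47 in knockout 1 to 3 against 8.44, 8.14 and 8.26 in control 1 to 3, and the brightest, 10382334, differed by 0.04.

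Over all 52 probe sets, 39 were lower, 12 higher and 1 at 0, with a median log2 difference of -0.10 against 0.01 for all probe sets, of which 47.2% were lower. In limma, 0 of the 52 passed at an adjusted p below 0.05 (percent of all probe sets called, 0.00509%), and their smallest adjusted p was 0.545. At an unadjusted p below 0.05, 6 were lower and 1 higher, where 2.94% of all probe sets were lower and 4.75% higher. The 6 were 4 of *Kcnj10* and 1 each of *S100b* and *Gja1*. That count of 7 in either direction was 4 when control 1 or knockout 3 was left out, 2 when control 3 was, and 1 when both arrays with high *Gabra6* were. Knockout values lay below all control values in 10 of the 52, or 19.2%, against 5.52% of all probe sets, and above all control values in 1, against 7.94%. The 52 are not 52 independent readings, because probe sets of 1 gene share its transcript.

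**Figure D3:**
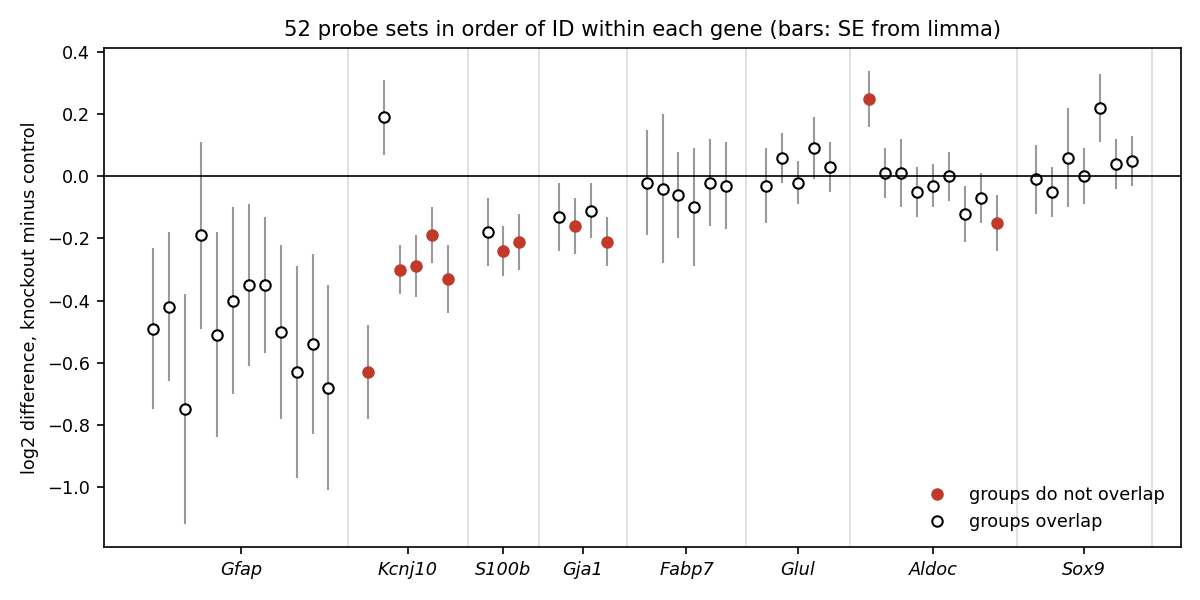
Log2 difference, knockout minus control, of the 52 probe sets (vertical axis), grouped by gene and in order of probe set ID, with SE bars from limma. Filled red points have groups that do not overlap and open points groups that do. The 12 *Gfap* points are all below 0 with wide bars, and *Kcnj10* has 5 filled points between -0.63 and -0.19 and an open one at 0.19. *S100b* and *Gja1* have 2 filled points each, below 0. *Aldoc* has filled points at 0.25 and -0.15. The open points of *Fabp7* run from -0.10 to -0.02, of *Glul* from -0.03 to 0.09 and of *Sox9* from -0.05 to 0.22.

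The 8 genes did not move as 1 block across the 6 arrays. Over their 28 pairs the median Pearson r was -0.02, with 14 pairs above 0, and the median over all 12567591 pairs of genes was 0.00. An r of at least 0.8 was reached by 3 of the 28 pairs, or 10.7%, against 3.7% of all pairs. These were *Gja1* with *Kcnj10*, *Gja1* with *S100b* and *Kcnj10* with *S100b*, the genes whose groups did not overlap, and a shared step between groups raises such a value. *Gja1* and *Kcnj10* had r = 0.90 (exact permutation p = 0.0139, 0.214 after adjustment over the 28 pairs) and rho = 0.94 (exact permutation p = 0.0167, adjusted 0.233). Without the 2 arrays farthest from the median of *Gja1*, control 3 and knockout 3, r was 0.91. *S100b* and *Gja1* had r = 0.90 (exact permutation p = 0.0153, adjusted 0.214) and rho = 0.94 (exact permutation p = 0.0167, adjusted 0.233), and r = 0.83 without knockout 3 and control 1. *S100b* and *Kcnj10* had r = 0.87 (exact permutation p = 0.025, adjusted 0.233) and rho = 0.89 (exact permutation p = 0.0333, adjusted 0.233), and r = 0.99 without the same arrays. After each group's mean was subtracted, r in these 3 pairs was 0.55, 0.64 and 0.45. At that stage 1 of the 28 pairs, *Gfap* with *Kcnj10*, had an r of at least 0.8, against 5.58% of all pairs.

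*Gfap* followed this group only in part. With *Kcnj10* it had r = 0.78 (exact permutation p = 0.0458, adjusted 0.321) and rho = 0.83 (exact permutation p = 0.0583, adjusted 0.327), and r was 0.81 after each group's mean was subtracted. Without knockout 2 and control 3, the arrays farthest from the median of *Gfap*, r was 0.24, so the relation rests on those arrays. With *S100b* it had r = 0.47 and rho = 0.66 (exact permutation p = 0.338 and 0.175), and r = -0.03 after the subtraction. With *Gja1* it had r = 0.62 and rho = 0.71 (exact permutation p = 0.169 and 0.136), and r = 0.30 after it. *Glul* and *Sox9* had r = 0.64 (exact permutation p = 0.174, adjusted 0.81) and rho = 0.89 (exact permutation p = 0.0333, adjusted 0.233). None of the 28 pairs passed after adjustment, and 4 had an unadjusted exact p below 0.05 for r. *Gfap*, *Kcnj10*, *S100b* and *Gja1* are the 4 genes with the largest differences in these same arrays, so this split is not independent of the r as measured. All 16 pairs that join 1 of these to 1 of the other 4 had an r between -0.47 and 0.39 as measured, and between -0.70 and 0.61 after group means were subtracted. Some moved far when 2 arrays were left out: without knockout 2 and control 3, *Gfap* had r = 0.99 with *Glul* and 0.93 with *Sox9*, and without control 2 and knockout 3, *Aldoc* had r = -0.89 with *Gja1*. These r rest on 4 arrays each.

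**Figure D4:**
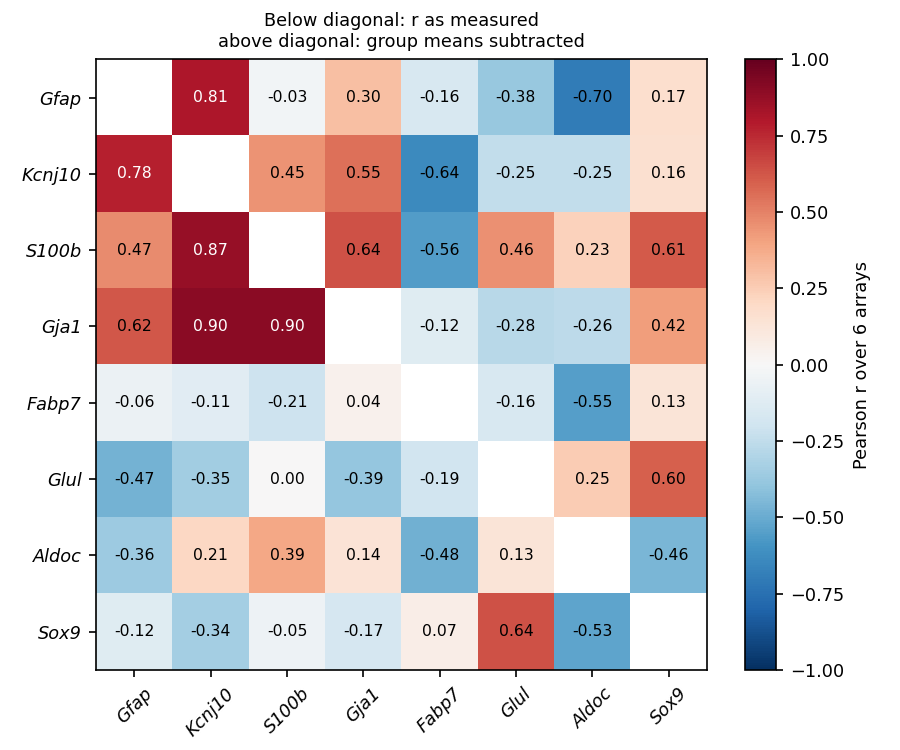
Pearson r over the 6 arrays for each pair of the 8 genes, on a colour scale that runs from -1 (blue) to 1 (red), as measured below the diagonal and after subtracting each group's mean above it. *Kcnj10*, *S100b* and *Gja1* form a block of 0.87 to 0.90 as measured, which is 0.45 to 0.64 above the diagonal, and the pair of *Gfap* and *Kcnj10* is at 0.78 and 0.81.

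Among the 2507 other genes brighter than the median gene, those whose signal followed *Gfap* most closely over the 6 arrays were *Cops9* (r = 0.984), *Pmch* (0.977), *Mettl2* (0.975), *Tafa2* (0.970) and *Yeats4* (0.967). These are descriptions over 6 arrays, and 147 of the 2507, or 5.86%, had an r of at least 0.8. Of the other 7 astrocyte genes *Kcnj10* ranked highest in that order, at place 170, followed by *Gja1* at 376 and *S100b* at 580. *Pmch*, the precursor of melanin-concentrating hormone of the lateral hypothalamus, had 7.47, 7.18 and 7.35 in knockout 1 to 3 against 7.52, 7.41 and 7.70 in control 1 to 3.

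Other astrocyte genes were read from 6 lists, which held 224 genes in all, of which 45 were measured. Among them 25 were lower and 20 higher in knockouts, with a median log2 difference of 0.00, equal to that of all genes. In limma 0 of the 45 passed at an adjusted p below 0.05, while 8 were lower and 2 higher at an unadjusted p below 0.05, against 6.12% and 7.95% of all genes. Of 19 other markers of mature astrocytes, 16 were lower and 3 higher, with a median of -0.10, where 51.4% of all genes were lower. Of the 19, 6 had an unadjusted p below 0.05, all lower, against 6.12% of all genes. *Sparc*, which encodes a matrix-binding protein that astrocytes secrete, had 11.08, 11.01 and 11.03 in knockout 1 to 3 against 11.18, 11.20 and 11.28 in control 1 to 3 (log2 difference -0.18, SE 0.05, limma adjusted p = 0.231). *Plcd4*, a phospholipase C gene, differed by -0.29 (SE 0.09), and *Dbi*, which encodes a binding protein for acyl-CoA, by -0.21 (SE 0.07). At their brightest probe sets *Sparc*, *Plcd4* and *Dbi* differed by -0.10, -0.32 and -0.21. Without knockout 2 and control 3, 13 of the 19 were lower.

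The 5 measured genes of astrocyte lineage and transcription were at or above 0, with a median of 0.10 and none at an unadjusted p below 0.05, among them *Rfx4* at 0.16, *Id2* at 0.13 and *Foxo3* at 0.10. *Stat3*, the factor that drives astrocyte reactivity, was at 0.00 (SE 0.05). Of 7 genes of ion and water homeostasis, 5 were higher and 2 lower, with *Utrn*, a gene of the cytoskeletal complex at astrocyte endfeet, at 0.17 (SE 0.05, limma adjusted p = 0.243). *Kcnj16*, whose product joins Kir4.1 in mixed channels, was at -0.22 (SE 0.10) and *Atp1b2*, the sodium pump subunit of astrocytes, at 0.11 (SE 0.06). The 1 measured junction gene, *Gjc1*, which encodes connexin 45, had 0.15 (SE 0.05) and higher values on all knockout arrays, but -0.01 at the brightest of its 5 probe sets, and *Utrn* had 0.07 at its brightest. The 2 measured genes of glutamate and GABA handling, *Grin2c* and *Aldh5a1*, differed by 0.03 and 0.01, and by 0.01 and -0.07 at their brightest probe sets. Of 11 genes of reactive astrocytes, 7 were lower and 4 higher, with a median of -0.04. *Serpina3n*, an acute-phase serpin of reactive astrocytes, had 10.49, 10.40 and 10.47 in knockout 1 to 3 against 10.71, 10.53 and 10.86 in control 1 to 3, a difference of -0.25 (SE 0.08, limma adjusted p = 0.269). Like *Gfap* it was lowest on knockout 2 and highest on control 3. *Fbln5*, a matrix gene, was at -0.17 (SE 0.07) and *Ugt1a1*, at a dim signal, at 0.29 (SE 0.16).

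**Figure D5:**
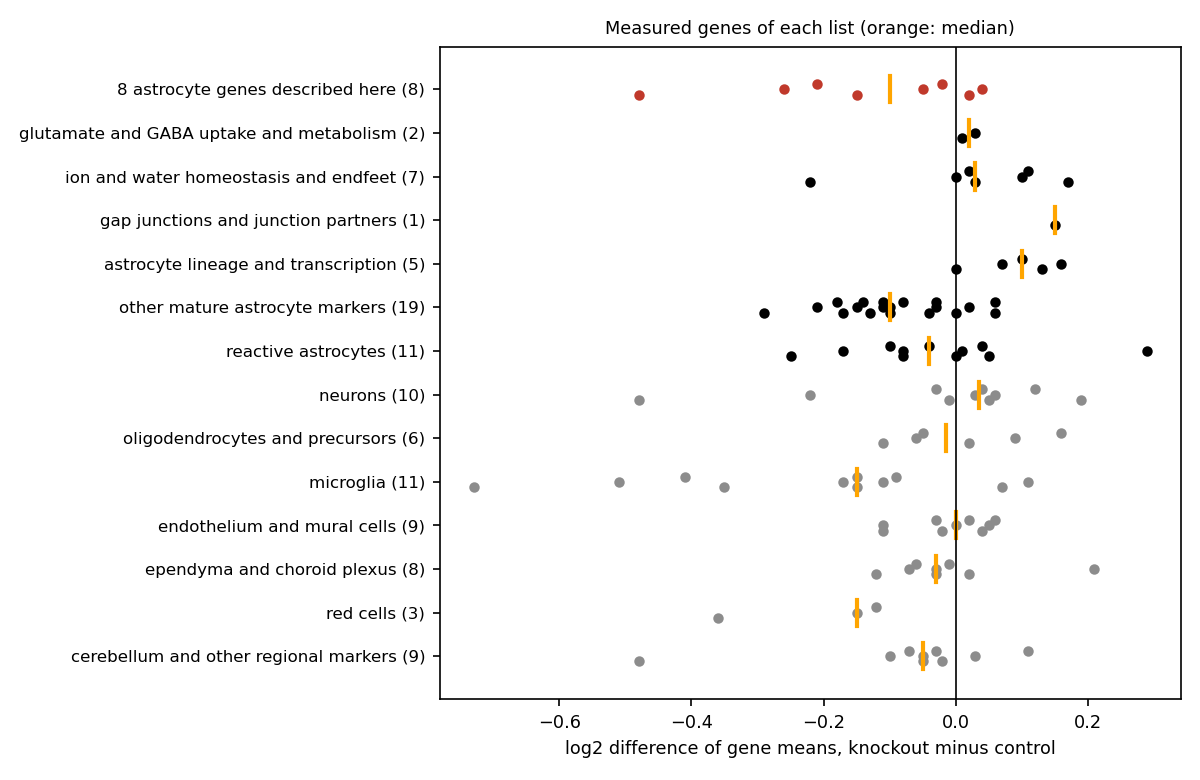
Log2 difference of gene means, knockout minus control (horizontal axis), for the 8 astrocyte genes (red), the measured genes of the 6 other astrocyte lists (black) and those of other cell types and regions (grey), with the number of measured genes in brackets and the median in orange. The 19 other markers of mature astrocytes lean below 0 with a median of -0.10, and the 5 lineage genes lie at or above 0.

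Genes of other cell types were set beside these values. The 11 measured microglial genes had 9 lower and 2 higher, a median of -0.15 and none at an unadjusted limma p below 0.05. Their mean signal was 6.95, 5.95 and 6.84 in knockout 1 to 3 against 6.82, 6.82 and 6.77 in control 1 to 3. Knockout 2, the array with the lowest *Gfap*, was also the lowest here. Control 3, the highest in *Gfap*, was the lowest control here, and knockout 1 was the highest of all 6 arrays. The mean includes *Ccl6* at -0.73 (SE 0.57) and *Ccl3* at -0.51 (SE 0.70). *Cd68*, a lysosomal protein of phagocytes, had 7.54, 6.68 and 7.39 in knockout 1 to 3 against 7.71, 7.47 and 7.66 in control 1 to 3, and *Ly86*, a receptor-associated protein of myeloid cells, differed by -0.35 (SE 0.17). The 2 higher genes were *Fcgr2b*, next by smallest p, at 0.11 (SE 0.08) and *Ccl4* at 0.07 (SE 0.08). The 10 neuronal genes had a mean signal between 8.95 and 9.16 in knockouts and between 8.95 and 9.23 in controls, with 6 higher and 4 lower. The highest of each group were knockout 2 and control 3, and *Gabra6* is 1 of the 10. Of the 10, *Meg3* was at 0.19 (SE 0.08, limma unadjusted p = 0.0387) and *Vip* at -0.22 (SE 0.11). The 9 measured markers of cerebellum and other regions, *Gabra6* again among them, had 7 lower and 2 higher with a median of -0.05. The 6 oligodendrocyte genes were split 3 and 3 with a median of -0.02, the 9 endothelial and mural genes had a median of 0.00, and the 8 of ependyma and choroid plexus one of -0.03. Without overlap between groups, *Aspa* of the oligodendrocyte genes was higher by 0.16 and *Ramp2* of the endothelial genes lower at -0.11. *Ly86* of the microglial genes and *Slc4a1* of the red cell genes were also lower without overlap. Of all genes, 8.85% were lower and 11.3% higher without overlap. Of the 8 ependyma and choroid plexus genes 6 were lower and 2 higher, with *Kcnj13* at 0.21 (SE 0.07, limma unadjusted p = 0.0221). All 3 red cell genes measured were dim, with mean signals of 5.15 for *Slc4a1*, 4.40 for *Hba-x* and 4.41 for *Hbq1b*. The median over all tested probe sets was 7.05. All 3 were lower, with a mean between 4.51 and 4.59 in knockouts and between 4.73 and 4.78 in controls. *Slc4a1*, the red cell anion exchanger, was at -0.36 (SE 0.07, limma adjusted p = 0.215) over its 19 probe sets but at 0.24 at the brightest of them. The part of other cells in the astrocyte values was not tested.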

How the data were processed

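Total RNA of 6 mouse brain samples was labelled for a 1-colour whole-transcript array, per the labels' protocols. The deposited table holds log2 signals per probe set, with the scale read from its values (1.69 to 14.41), and MAS5 is the tool listed, without version, per the submitters' processing notes; how the authors scaled the arrays to each other, and the centring and build, are not given in the sources used here. No further normalization was applied, since array medians differed by less than 0.1. Of 65535 probe sets, 6616 with IDs below the first annotated one were taken as control features and left out. Symbols came from the platform's annotation and were updated through the RefSeq table of GRCm38.p6 (698 of 5032).

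Knockout minus control was fitted with limma 3.58.1 in R 4.3.3 (lmFit, eBayes, two-sided), per probe set and per gene mean, with Benjamini-Hochberg adjustment over all 58919 probe sets or 5017 genes. The fit was tested on simulated data. Alternatives were the gene summary, centring, quantile normalization, array weights, moderation, dim probe sets, a replicate block and leaving out arrays. An exact permutation test of 3 against 3 cannot go below 0.1, and the number of arrays limits the precision. Pair correlations used all 720 orders of the 6 arrays. The genes, the lists and the rule for named genes (all 8 members, with the brightest, smallest-p, highest and lowest probe sets as needed, up to 3 genes by smallest p from each list, and the 5 genes most like *Gfap*) were chosen with earlier results of these data known. *Stat3*, *Syt1*, *Gabra6* and the pair of Aldoc probe sets apart were named after their values were seen. Deviations from group means of arrays with the same number correlated at 0.037, -0.070 and -0.100, so the numbers were not taken as pairs.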

Additional observations from a re-analysis of the deposited data

How the results depend on the processing

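In the 15 alternatives run for each, *Gfap*, *Kcnj10*, *S100b* and *Gja1* kept their direction, with log2 differences of -0.68 to -0.03, -0.30 to -0.20, -0.26 to -0.15 and -0.18 to -0.12, and 0 of the 8 genes and 0 of their probe sets had an adjusted p below 0.05 in any of them, or below 0.1 in the reported setting. The smallest adjusted p of the 8 was that of *Kcnj10* with trend and robust moderation (limma adjusted p = 0.0751). The median correlation over the 28 pairs, -0.02, changed sign to 0.05 with the brightest probe set, 0.07 with median centring, 0.22 with the median over probe sets, 0.12 with quantile normalization and 0.29 without knockout 2 and control 3, and ran from -0.14 to 0.21 without 1 array. Among *Gfap*, *Kcnj10*, *S100b* and *Gja1* alone the median r was 0.82. It was 0.53 with the brightest probe set, 0.69 without knockout 2 and control 3, and 0.75 to 0.87 in the other alternatives. Genes at an unadjusted limma p below 0.05, 3, ran from 1 to 4 without 1 array, and probe sets, 7, from 2 to 9. The probe sets numbered 1 without knockout 2 and control 3, and 12 with the replicate block, which changed no adjusted call. Differences near 0 changed sign: *Aldoc* to 0.00 with the brightest probe set and without control 2, *Fabp7* to 0.00 without control 3 and 0.13 without knockout 1, *Glul* to 0.00 with array weights and with quantile normalization and -0.01 without control 3 and without knockout 2 and control 3 (-0.01 to 0.06 without 1 array), and *Sox9* to 0.00 with the median over probe sets. The cause was not tested. Without the probe set of *Glul* among chromosome 11 IDs, an alternative chosen after seeing the data, *Glul* differed by 0.02. Other astrocyte genes lower in the knockout, 25 of 45, ran from 21 to 30, the highest with quantile normalization, where 57.2% of all genes were lower, against 51.4% in the reported setting. With median centring 29 of the 45 and 60.8% of all genes were lower.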

Other observations

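The genes that lie next to the 8 on their chromosomes, by the order of measured genes in the RefSeq table, were read beside them. The 10 neighbours of *Gfap* had a median log2 difference of 0.00, from -0.07 at *C1ql1* to 0.15 at *Gjc1*. Those of *S100b* had a median of 0.03, from -0.11 at *Prmt2* to 0.35 at *Zfp280b*, and those of *Gja1* one of -0.01, from -0.07 to 0.06. The 10 neighbours of *Kcnj10* had a median of -0.04 and the widest range of the 8, from -0.19 at *Slamf9*, a gene of immune cells, to 0.44 at *Pigm*, an enzyme of membrane anchor synthesis. In the limma fit over all genes, 2 of these 10 were lower and 2 higher at an unadjusted p below 0.05, against 6.12% and 7.95% of all genes. The 10 neighbours of *Aldoc* had the lowest median of the 8, -0.10, with 7 lower, where 51.4% of all genes were lower. Of the 10, 2 had knockout values below all control values, against 8.85% of all genes. *Aldoc* itself was at -0.02. The medians around *Glul*, *Fabp7* and *Sox9* were -0.03, -0.02 and 0.04. These neighbours were chosen after seeing the data and were given no test of their own.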
